A study of Solanum tuberosum with 8 samples.

Results

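Respiratory burst oxidase homologs (Rboh) are the NADPH oxidases of plants. The study named 7 Rboh genes of potato, and these 7 of the 42667 genes in the expression table were taken by their identifiers, whatever their values. They are RbohA (PGSC0003DMG400012316), RbohB (PGSC0003DMG400024754), RbohC (PGSC0003DMG400014168), RbohD (Novel02721), an RbohE-like gene (Novel02552), Novel03252, which the study matched to a tomato NADPH oxidase, and PGSC0003DMG400013550, listed only as a respiratory burst oxidase. RbohD, the RbohE-like gene and Novel03252 are gene models that the authors predicted from their own assembly on the SolTub_3.0 build. RbohD lies on the plus strand of chromosome 6 at 50370286 to 50398526, the RbohE-like gene on the minus strand of chromosome 5 at 24157108 to 24170674, and Novel03252 on the plus strand of chromosome 8 at 55364623 to 55372032. Positions and exon structures of the other 4 were not used here. RNA-Seq was run on tubers of 2 cultivars after cutting. For D6, which the sources used here name only by its label, 1 library at 0 h and 3 each at 4, 12 and 24 h were used. For X2 (Xingjia 2, a tetraploid cultivar), 3 libraries each at 0, 4 and 12 h and 2 at 24 h were used. X2 tubers were cut transversely and kept humid at room temperature, tissue blocks running from epidermis to pith were sampled, and 0 h served as the control. Each X2 replicate mixed tissue of 3 tubers, and how D6 replicates were made is not given in the sources used here.

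An Rboh protein sits in the plasma membrane and passes electrons from cytosolic NADPH to oxygen outside the cell, which gives superoxide. Superoxide is then converted to hydrogen peroxide, spontaneously or by superoxide dismutase, and catalase is among the enzymes that break hydrogen peroxide down. Plant Rboh proteins carry calcium-binding EF hands in their cytosolic N terminus, and calcium-dependent protein kinases phosphorylate this part. In cut potato tubers, reactive oxygen species take part in wound signalling and in the cross-linking of suberin phenolics at the wound. In potato, RbohB is known for the oxidative burst in response to pathogens.

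For 3 members the study designed qRT-PCR primers, which are the sequences at hand that identify these transcripts. They are shown because RbohC, RbohB and RbohA have different time courses below. Each is written 5′ to 3′.
RbohC forward primer: gcgcccaactcctactgg
RbohC reverse primer: cgccaccgtcagttttgc
RbohB forward primer: tgcatcacatctcccgcg
RbohB reverse primer: gaaagtttgcagccgggc
RbohA forward primer: acccgggagcaaggatca
RbohA reverse primer: gctgaacgtgcatcccct
All 6 primers are 18 bases long, and 11 or 12 of their bases are G or C.

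Levels are given as FPKM, fragments on a gene scaled to its length and to the reads of the library. Sums, shares and ranks of members therefore depend on the length used for each gene. For RbohD the length recovered from the FPKM was 2552 bases, against 3965 listed, and a longer length would lower its level. Reads recovered from the FPKM steps numbered 24226307 to 35649617 per D6 library and 29746314 to 44921591 per X2 library, and a 1 kb gene with 3 reads has 0.0842 to 0.124 FPKM in D6 and 0.0668 to 0.101 FPKM in X2. Of 2 columns that bear the name of X2 4 h replicate 2 the first was used, and results at 4 h that change without it are named. Patatin (PGSC0003DMG401017090), a tuber storage protein, averaged 11.8 FPKM in D6 and 19.0 FPKM in X2 at 0 h, and it ranged from 0.104 to 15.2 FPKM in the later D6 libraries and from 0.191 to 4.08 FPKM in the later X2 libraries. A chlorophyll a/b-binding protein gene (PGSC0003DMG400007375), a marker of green tissue, was at 0.271 FPKM in D6 and 0 to 0.0951 FPKM in X2 at 0 h, and at 24 h it was at 6.40 to 17.9 FPKM in D6 and 5.26 to 5.59 FPKM in X2. Both are single genes that the study listed for their large changes, and their part in the results below was not tested. In bulk tissue, fewer cells of a type and less RNA per cell cannot be told apart.

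Before cutting, the family was almost entirely RbohC and RbohD. RbohC took 55.0% of the summed FPKM of the 7 genes in the D6 library at 0 h and 54.6 to 60.3% in the X2 libraries, and RbohD took 32.5% in D6 and 28.1 to 36.2% in X2. The sum was 15.4 FPKM in D6 and 11.9 to 13.4 FPKM in X2 at 0 h. In D6 it averaged 113 FPKM at 4 h, 75.6 FPKM at 12 h and 101 FPKM at 24 h. In X2 it averaged 78.1 FPKM at 4 h, 61.3 FPKM at 12 h and 71.4 FPKM at 24 h. The sum therefore had its highest mean at 4 h in both cultivars, and its lowest mean among the later hours at 12 h, although the libraries of 4 h and 24 h overlap.

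The shares of the members in this sum differed between the hours. At 24 h, RbohA took 18.2 to 21.3% of the sum in D6 and 14.7 to 15.2% in X2, while RbohC took 22.7 to 27.7% in D6 and 27.6 to 29.5% in X2. In D6 at 24 h, Novel03252 had the highest mean share, 25.2%, and RbohC 25.1%, and their ranges overlap. In X2 at 24 h RbohD had the highest share in both libraries, 34.7 to 37.1%. That rank rests on the 2552 bases recovered for RbohD and was not tested with the 3965 listed. RbohB took 3.11 to 23.0% in D6 at 4 h, against 0.869 to 2.41% in X2 at 4 h.

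**Figure D1:**
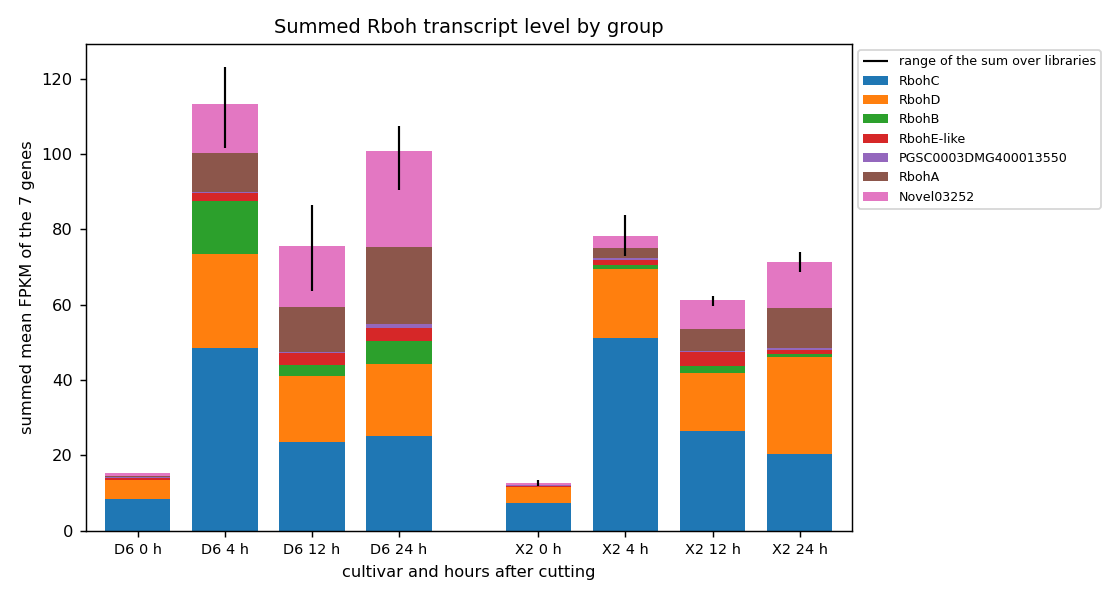
Mean FPKM of each Rboh gene stacked by cultivar and hour after cutting, with lines for the range of the sum over the libraries of a group (a single library in D6 at 0 h, and so no line). The sum was 15.4 FPKM in D6 and averaged 12.6 FPKM in X2 at 0 h, and was highest at 4 h, at means of 113 FPKM in D6 and 78.1 FPKM in X2.

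**Figure D2:**
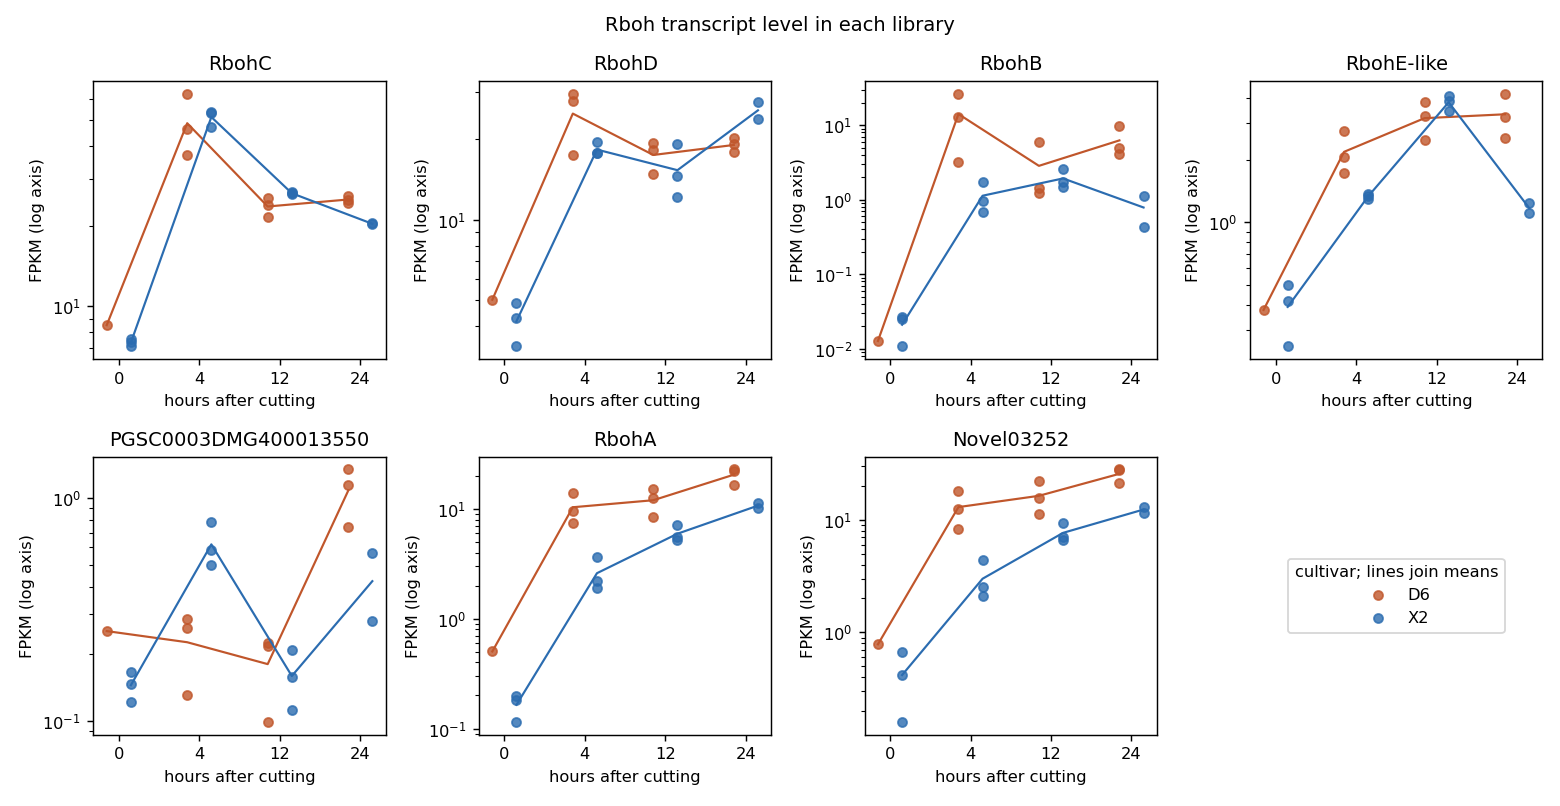
FPKM of each Rboh gene in every library on a log axis, by hour after cutting, with D6 points to the left of X2 points and lines through the group means. By group mean, RbohC is highest at 4 h and RbohA and Novel03252 at 24 h in both cultivars. The remaining genes have their highest mean at different hours in D6 and X2. For each of these the highest hour overlaps the next in D6, X2 or both, as it does for Novel03252 in D6.

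The first comparison asks which members responded to cut-wounding at all. By limma on log2(FPKM + 0.1), a gene with a mean of at least 0.5 FPKM was called a DEG where its |log2FC| reached 1 and its p before adjustment was 0.01 or less. Both limits are the study's own. In D6, 6 of the 7 members were called up at 4 h (beside 29.3% of all genes tested), 6 at 12 h (30.2%) and 6 at 24 h (28.8%). In X2, 6 were called up at 4 h (beside 35.4% of all genes tested), 6 at 12 h (36.6%) and 5 at 24 h (33.5%). PGSC0003DMG400013550 was under the FPKM filter in all 6 comparisons, and RbohB in X2 at 24 h. RbohA, RbohB, the RbohE-like gene and Novel03252 had means under 0.5 FPKM in X2 at 0 h. In the D6 library at 0 h, RbohB and the RbohE-like gene were also under 0.5 FPKM. In these cases the genes were tested only through their later libraries, so the counts are no support of their own. RbohB in X2 at 4 h fell under the filter where 4 h replicate 1 or 4 h replicate 3 was left out. The study also chose its Rboh list on these samples, so the direction is not independent evidence. In D6 the 0 h group is a single library, and the fit assumes that it varies like the other D6 groups.

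At 4 h, the log2FC of the members called against 0 h was 2.24 to 6.52 in D6 and 1.58 to 3.31 in X2. At 12 h it was 1.46 to 4.36 in D6 and 1.85 to 4.51 in X2. For 24 h the values were 1.55 to 5.71 in D6 and 1.41 to 5.37 in X2. The 0.1 added to FPKM makes these values smaller than the log2 of the ratio of means where the 0 h level is low. They therefore do not rank the members by fold. In X2 at 4 h the mean of RbohB was 53.9-fold that at 0 h, and its log2FC was 3.25. For RbohA these were 15.8-fold and 3.31. FPKM as deposited set the median of all genes tested at log2FC 0.26 to 0.33 in D6 and 0.37 to 0.47 in X2 against 0 h, and size factors brought it to between -0.01 and 0.07. Relative to such size factors all members called kept their direction, and the RbohE-like gene in X2 at 24 h lost its call, with a log2FC of 1.10 and an unadjusted p of 0.0119. Whether D6 and X2 differed in the change from 0 h was not tested.

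RbohC was the early member. In D6 its level was 8.50 FPKM at 0 h, 46.0, 36.9 and 62.6 FPKM at 4 h, 23.9, 21.5 and 25.5 FPKM at 12 h, and 25.9, 24.4 and 25.1 FPKM at 24 h. In X2 it was 7.33, 7.52 and 7.07 FPKM at 0 h, 47.1, 53.2 and 53.2 FPKM at 4 h, 26.8, 26.5 and 26.3 FPKM at 12 h, and 20.3 and 20.4 FPKM at 24 h. Every 4 h library of either cultivar lay above every library of another hour, and every 0 h library lay below all others. It also had the most reads of the family, 1385 to 11845 per library.

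RbohC at 4 h stood 5.71-fold above the 0 h library in D6, a log2FC of 2.47 ± 0.23 (SE; adjusted p = 1.12e-05). In X2 the mean at 4 h was 7.002-fold that at 0 h, a log2FC of 2.79 ± 0.08 (SE; adjusted p = 2.96e-07). By 12 h its level lay below that of 4 h in every library. The log2FC at 12 h against 4 h was -1.003 in D6 (SE 0.19, adjusted p = 0.00266), and it was the only member called down there, where 12.5% of all genes were. In X2 it was -0.94 (SE 0.06, adjusted p = 8.43e-06), short of the fold threshold. The D6 call sits on that threshold and was lost with size factors (-0.99), with recovered reads in limma-voom (-0.99) and without 4 h replicate 3 (-0.80), which had the highest level.

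From 12 h to 24 h the cultivars parted slightly in RbohC. The D6 libraries overlap between those hours, with a log2FC of 0.09 at 24 h against 12 h (95% interval -0.13 to 0.31). In X2 both 24 h libraries lay below all 12 h libraries, with a log2FC of -0.38 (SE 0.07, adjusted p = 0.00612). At 24 h against 4 h the log2FC was -0.91 in D6 (adjusted p = 0.00287) and -1.32 in X2 (adjusted p = 2.75e-05), where RbohC was the member called down, as were 17.9% of all genes. The cultivar difference in the change at 24 h against 12 h, D6 minus X2, was 0.47 ± 0.11 (SE; adjusted p = 0.0459), under the fold threshold.

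RbohD, the second most abundant member at 0 h, was raised at every later hour with no shared peak. Its D6 levels were 5.01 FPKM at 0 h, 17.5, 27.7 and 29.6 FPKM at 4 h, 14.9, 19.3 and 18.2 FPKM at 12 h, and 19.1, 17.8 and 20.1 FPKM at 24 h. Its X2 levels were 4.86, 4.28 and 3.35 FPKM at 0 h, 17.7, 17.7 and 19.5 FPKM at 4 h, 12.2, 14.6 and 19.1 FPKM at 12 h, and 23.9 and 27.5 FPKM at 24 h. The highest mean was at 4 h in D6, where the libraries overlap those of 24 h, and at 24 h in X2, where both libraries lay above all others.

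RbohD at 4 h had a log2FC of 2.26 ± 0.26 against 0 h in D6 (SE; adjusted p = 4.64e-05) and of 2.12 ± 0.14 in X2 (SE; adjusted p = 3.95e-06). Between the later hours no RbohD change passed the call. The log2FC at 24 h against 4 h was -0.35 in D6 (95% interval -0.81 to 0.10) and 0.48 in X2 (0.26 to 0.71), and the cultivar difference in this change was -0.84 ± 0.25 (SE; adjusted p = 0.0497). That difference came to -1.07 (unadjusted p of 1.71e-05) without D6 4 h replicate 1, the lowest of its group, and then passed the call.

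RbohA was the late member, from very low levels at 0 h. It stood at 0.503 FPKM in the D6 library at 0 h, at 9.56, 14.0 and 7.498 FPKM at 4 h, at 8.38, 15.1 and 12.5 FPKM at 12 h, and at 22.1, 22.9 and 16.5 FPKM at 24 h. In X2 it stood at 0.197, 0.114 and 0.182 FPKM at 0 h, at 1.88, 2.22 and 3.68 FPKM at 4 h, at 7.17, 5.50 and 5.16 FPKM at 12 h, and at 10.1 and 11.3 FPKM at 24 h. In X2 the libraries of the 4 hours do not overlap and follow the order of time. In D6 those of 4 h and 12 h overlap, and those of 24 h lie above both.

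The 0 h levels of RbohA rest on 28 reads in D6 and on 9 to 12 reads per library in X2. At 24 h the mean was 40.7-fold the 0 h library in D6, a log2FC of 5.08 ± 0.37 (SE; adjusted p = 3.00e-06). In X2 the mean at 24 h was 65.2-fold that at 0 h, a log2FC of 5.37 ± 0.24 (SE; adjusted p = 1.88e-05). At 12 h against 4 h RbohA was up-regulated in X2 (log2FC 1.21, SE 0.24, adjusted p = 0.0027), as were 13.0% of all genes, while in D6 the log2FC was 0.22 (95% interval -0.43 to 0.86). It was up-regulated in both at 24 h against 4 h, by a log2FC of 1.01 in D6 (SE 0.24, adjusted p = 0.00663) and of 2.06 in X2 (SE 0.27, adjusted p = 0.000601). The D6 call was lost without 4 h replicate 1 (0.98, unadjusted p of 0.0131), 4 h replicate 3 (0.80), 24 h replicate 1 (0.95, unadjusted p of 0.0134) or 24 h replicate 2 (0.92, unadjusted p of 0.0148).

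Novel03252 moved with RbohA in nearly fixed proportion. Its D6 levels were 0.784 FPKM at 0 h, 12.6, 18.0 and 8.30 FPKM at 4 h, 11.2, 22.1 and 15.6 FPKM at 12 h, and 27.7, 28.0 and 21.004 FPKM at 24 h. Its X2 levels were 0.420, 0.160 and 0.674 FPKM at 0 h, 2.54, 2.08 and 4.36 FPKM at 4 h, 9.26, 7.02 and 6.65 FPKM at 12 h, and 11.5 and 13.1 FPKM at 24 h. The ratio of Novel03252 to RbohA was 0.937 to 1.46, with a median of 1.28, in the 17 libraries of 4, 12 and 24 h. At 0 h it was 1.40 to 3.70 in the 4 libraries, on 15 to 53 reads of Novel03252. Across the 21 libraries the Pearson r of log2(FPKM + 0.1) was 0.99, a description over libraries that share the wound response. Whether the models share a transcript was not tested, and without Novel03252 the family sum at 24 h averaged 75.3 FPKM in D6 and 59.1 FPKM in X2.

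The calls of Novel03252 also matched those of RbohA between the later hours. Its log2FC at 24 h against 4 h was 1.03 in D6 (SE 0.27, adjusted p = 0.0106) and 2.07 in X2 (SE 0.29, adjusted p = 0.000821). At 12 h against 4 h it was 0.35 in D6 (95% interval -0.40 to 1.09) and 1.38 in X2 (SE 0.26, adjusted p = 0.00183). The D6 call at 24 h against 4 h was lost without 4 h replicate 1 (unadjusted p of 0.0172), 4 h replicate 3 (log2FC 0.75), 24 h replicate 1 (unadjusted p of 0.0208) or 24 h replicate 2 (unadjusted p of 0.0226).

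**Figure D3:**
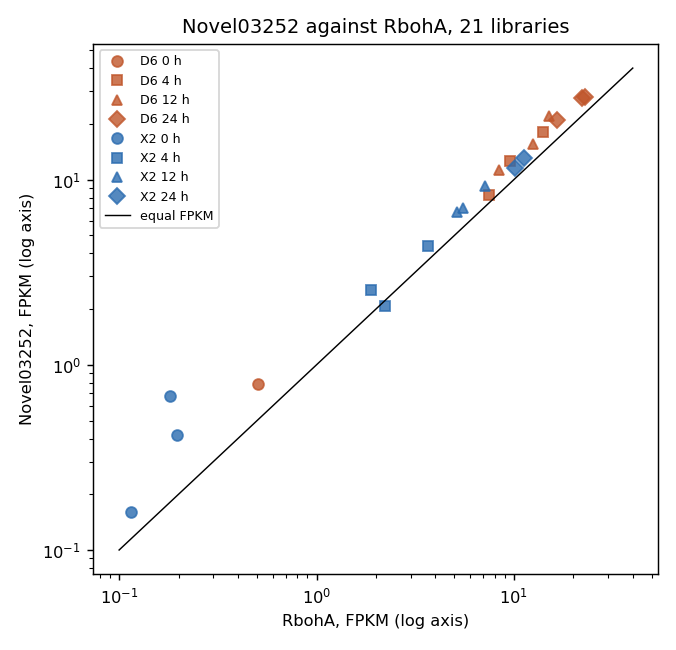
FPKM of Novel03252 against FPKM of RbohA in the 21 libraries, both on log axes, by cultivar (colour) and hour (shape), with a line of equal values. All but 1 of the points lie above the line, and the ratio at 4, 12 and 24 h was between 0.937 and 1.46.

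RbohB was nearly silent at 0 h and varied most between libraries. In D6 it stood at 0.0127 FPKM at 0 h, at 26.5, 3.16 and 12.7 FPKM at 4 h, at 1.43, 5.87 and 1.25 FPKM at 12 h, and at 4.91, 9.80 and 4.06 FPKM at 24 h. In X2 it stood at 0.0253, 0.0269 and 0.0107 FPKM at 0 h, at 1.75, 0.676 and 0.965 FPKM at 4 h, at 2.57, 1.74 and 1.48 FPKM at 12 h, and at 1.14 and 0.434 FPKM at 24 h. All later libraries lay far above the 0 h libraries, while the later hours overlap one another in D6, as do 4 h and 12 h, and 4 h and 24 h, in X2. The standard deviation was 83.1% of the mean in D6 at 4 h and 91.9% at 12 h, against 26.8% and 8.43% for RbohC.

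The 0 h values of RbohB are 2 reads in the D6 library and 4, 6 and 2 reads in the X2 libraries. Per read sequenced, D6 had 1085 times the level of 0 h at 4 h (95% exact counting interval 300.2 to 8960), 219.8 times at 12 h (60.7 to 1817) and 478 times at 24 h (132 to 3952). X2 had 54.3 times at 4 h (30.9 to 106), 93.8 times at 12 h (53.5 to 182) and 36.3 times at 24 h (20.4 to 71.1). These intervals cover counting error only, and their upper ends in D6 are wide because of the 2 reads. In the fit, RbohB at 4 h had a log2FC against 0 h of 6.52 ± 1.09 in D6 (SE; adjusted p = 0.000482) and of 3.25 ± 0.38 in X2 (SE; adjusted p = 9.3e-05). With recovered reads in limma-voom the D6 calls were lost at 4 h (unadjusted p of 0.260), 12 h (unadjusted p of 0.394) and 24 h (unadjusted p of 0.302).

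In consecutive later hours the log2FC of RbohB had opposite signs in the cultivars, with no call in the fit without a block. At 12 h against 4 h the log2FC was -2.17 in D6 (SE 0.83, adjusted p = 0.0546) and 0.78 in X2 (SE 0.34, adjusted p = 0.0727). For 24 h against 12 h it was 1.36 in D6 (SE 0.58, adjusted p = 0.103) and -1.28 in X2 (SE 0.40, adjusted p = 0.0405). In D6 at 12 h and 24 h, libraries of the same number deviated together in these same data, and no label states that the numbers pair libraries. With the replicate number as a block the log2FC of 1.36 had an unadjusted p of 0.000653 and passed. Since the block was chosen from these values, this is no support of its own. In X2 the change at 24 h against 12 h passed at an adjusted p of at most 0.05. It also passed with the block (-1.34, unadjusted p of 0.00196), although only 2 pairs of libraries exist there. Without 24 h replicate 1 the log2FC was -1.89. The log2FC at 24 h against 4 h was negative and uncalled in both cultivars, at -0.81 in D6 (95% interval -2.49 to 0.87) and -0.50 in X2 (-1.69 to 0.69). The cultivar difference in the change at 24 h against 12 h was 2.64 ± 0.83 (SE; adjusted p = 0.109), a call that was lost in 6 of the other 8 alternatives, such as size factors (unadjusted p of 0.0116), and in 8 of the 11 fits that left out a library, with an unadjusted p of up to 0.0551 without X2 24 h replicate 3. The difference at 12 h against 4 h was -2.95 ± 1.01 (SE; adjusted p = 0.0803).

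The RbohE-like gene had a sharp peak at 12 h in X2 and a plateau in D6. Its D6 levels were 0.377 FPKM at 0 h, 2.77, 1.72 and 2.08 FPKM at 4 h, 3.80, 2.50 and 3.25 FPKM at 12 h, and 4.18, 3.24 and 2.55 FPKM at 24 h. Its X2 levels were 0.418, 0.251 and 0.5002 FPKM at 0 h, 1.34, 1.37 and 1.29 FPKM at 4 h, 3.85, 4.08 and 3.46 FPKM at 12 h, and 1.23 and 1.11 FPKM at 24 h. In X2 no 2 hours overlap, and the 24 h libraries lie just below those of 4 h. In D6 the libraries of 4 h overlap those of 12 h, and those of 12 h overlap those of 24 h.

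In X2 the RbohE-like gene was up-regulated at 12 h against 4 h (log2FC 1.44, SE 0.13, adjusted p = 3.31e-05). It was down-regulated at 24 h against 12 h (log2FC -1.61, SE 0.15, adjusted p = 0.000558), as were 4.73% of all genes. In D6 the log2FC was 0.53 at 12 h against 4 h (95% interval -0.03 to 1.08) and 0.05 at 24 h against 12 h (-0.47 to 0.57). The cultivar difference in the change at 24 h against 12 h was 1.67 ± 0.30 (SE; adjusted p = 0.0171), and 1.61 with size factors (unadjusted p of 0.000236). That at 12 h against 4 h was -0.91 ± 0.27 (SE; adjusted p = 0.0485), just under the fold threshold, and reached -1.01 with limma-voom.

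PGSC0003DMG400013550 was the weakest member by the later hours, with 20 to 238 reads per library. In D6 it stood at 0.253 FPKM at 0 h, at 0.260, 0.130 and 0.285 FPKM at 4 h, at 0.0984, 0.224 and 0.216 FPKM at 12 h, and at 0.744, 1.35 and 1.15 FPKM at 24 h. In X2 it stood at 0.166, 0.122 and 0.145 FPKM at 0 h, at 0.582, 0.499 and 0.777 FPKM at 4 h, at 0.208, 0.111 and 0.156 FPKM at 12 h, and at 0.566 and 0.281 FPKM at 24 h. The 24 h libraries of D6 lie above all its other libraries, while in X2 the 4 h libraries lie above those of 0 h and 12 h and overlap those of 24 h.

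In D6, PGSC0003DMG400013550 was up-regulated at 24 h against 12 h (log2FC 2.08, SE 0.36, adjusted p = 0.004), as were 6.53% of all genes. It was up-regulated at 24 h against 4 h (log2FC 1.86, SE 0.35, adjusted p = 0.00226), as were 19.6% of all genes. In both comparisons it passed the FPKM filter only through its 24 h libraries, so these calls are no support of their own. At 24 h against 12 h it was not called without 24 h replicate 2. In X2 the log2FC at 24 h against 4 h was -0.50 (95% interval -1.36 to 0.37). The cultivar difference in that change was 2.36 ± 0.49 (SE; adjusted p = 0.0123), where the gene again passed the filter through D6 at 24 h, and without a filter the same log2FC had an unadjusted p of 0.000889. That call was lost with a pseudocount of 1 (0.94), and the gene was under the filter at a mean of at least 1 FPKM and with all libraries in 1 model. With no FPKM filter, the gene had a log2FC at 4 h against 0 h of -0.15 in D6 (unadjusted p of 0.749) and 1.54 in X2 (unadjusted p of 0.000439), and at 12 h against 4 h of -0.22 in D6 (unadjusted p of 0.533) and -1.47 in X2 (unadjusted p of 0.00075).

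**Figure D4:**
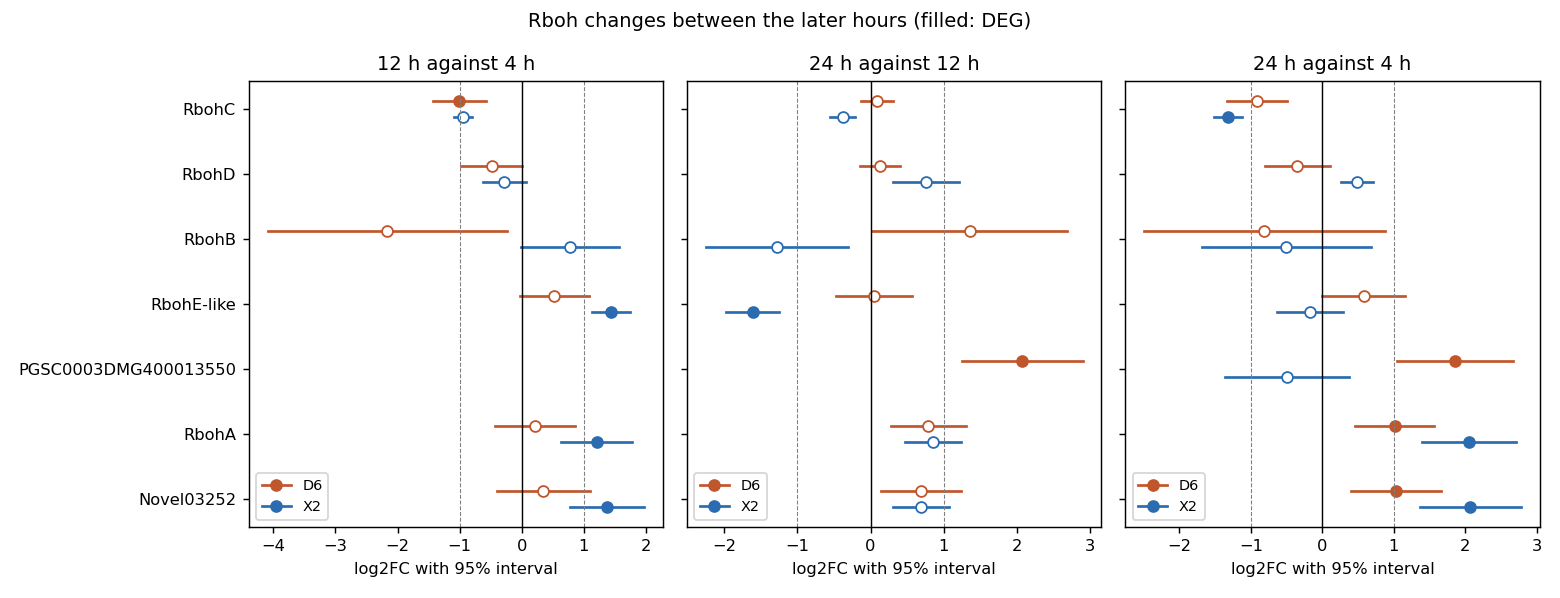
Log2FC between the later hours for each Rboh gene in D6 (upper of each pair) and X2, with 95% intervals, filled where the change was called a DEG and with dashed lines at a log2FC of 1 and -1. RbohC is left of 0 and RbohA and Novel03252 right of 0 at 24 h against 4 h in both cultivars, and the intervals of the RbohE-like gene lie apart at 24 h against 12 h.

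The calls over the later hours are given here by comparison and direction. In D6, 1 member was down at 12 h against 4 h (RbohC), beside 12.5% of all genes. At 24 h against 12 h 1 was up (PGSC0003DMG400013550), beside 6.53%. At 24 h against 4 h 3 were up (RbohA, Novel03252 and PGSC0003DMG400013550), beside 19.6%. PGSC0003DMG400013550 passed the FPKM filter in both comparisons only through its 24 h libraries, so its calls are no support of their own. In X2, 3 were up at 12 h against 4 h (RbohA, Novel03252 and the RbohE-like gene), beside 13.0% of all genes, 1 was down at 24 h against 12 h, beside 4.73%, and at 24 h against 4 h 2 were up, as were 18.3% of all genes, and 1 was down, as were 17.9%. By the hour of the highest mean, RbohC was early and RbohA and Novel03252 were late in both cultivars. That hour differed between D6 and X2 for RbohB, RbohD, the RbohE-like gene and PGSC0003DMG400013550. However, libraries of the highest hour overlap those of the next for RbohB in both cultivars and for PGSC0003DMG400013550 in X2. They also overlap for RbohD, the RbohE-like gene and Novel03252 in D6, so these peak hours are not settled.

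The direct comparison of D6 with X2 asks which members differed in level at the same hour. At 4 h, 3 of the 6 members tested were higher in D6, where 9.79% of all genes were. They were RbohB, with a log2FC of 3.17 ± 0.73 (SE; adjusted p = 0.01), RbohA, with 1.96 ± 0.30 (SE; adjusted p = 0.00198), and Novel03252, with 2.07 ± 0.34 (SE; adjusted p = 0.00268). For all 3, every D6 library at 4 h lay above every X2 library at 4 h. The RbohB call was lost with limma-voom (unadjusted p of 0.0119) and without X2 4 h replicate 2 (unadjusted p of 0.0135), X2 4 h replicate 3 (unadjusted p of 0.0119) or D6 4 h replicate 3 (unadjusted p of 0.0118). At 0 h RbohA stood at 0.503 FPKM in D6, against 0.114 to 0.197 FPKM in X2, a difference with 1 D6 library and no test.

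At 12 h only Novel03252 passed the call, with a log2FC of 1.04 ± 0.24 (SE; adjusted p = 0.0136), where 6.55% of all genes were higher in D6. That call was lost without X2 12 h replicate 2 (0.99), X2 12 h replicate 3 (0.95), D6 12 h replicate 2 (0.80) or D6 12 h replicate 3 (unadjusted p of 0.0117). RbohA had a log2FC of 0.98 ± 0.22 (SE; adjusted p = 0.0131), with all D6 libraries above all X2 libraries, and passed with size factors (1.06). RbohB differed by 0.22 (95% interval -1.05 to 1.49).

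At 24 h, 3 of the 7 members were higher in D6, where 6.47% of all genes were. RbohB had a log2FC of 2.86 ± 0.48 (SE; adjusted p = 0.00875), the RbohE-like gene of 1.40 ± 0.24 (SE; adjusted p = 0.00915) and Novel03252 of 1.04 ± 0.15 (SE; adjusted p = 0.0058). The Novel03252 call was lost without X2 24 h replicate 1 (0.95), D6 24 h replicate 1 (0.97) or D6 24 h replicate 2 (0.97). RbohA, with 0.92 ± 0.16 (SE; adjusted p = 0.0111), missed the fold threshold and passed without D6 24 h replicate 3 (1.07). PGSC0003DMG400013550 had a log2FC of 1.19 (95% interval 0.30 to 2.08) and missed the p threshold (unadjusted p of 0.0166). It passed the FPKM filter there only through D6.

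RbohC and RbohD differed little between the cultivars at 4, 12 and 24 h. The D6 minus X2 log2FC of RbohC was -0.11 at 4 h (95% interval -0.53 to 0.31), -0.17 at 12 h (-0.36 to 0.02) and 0.30 at 24 h (0.09 to 0.51). That of RbohD was 0.41 at 4 h (-0.04 to 0.86), 0.20 at 12 h (-0.20 to 0.61) and -0.43 at 24 h (-0.69 to -0.16). With FPKM as deposited, these intervals leave out a 2-fold difference in RbohC and RbohD in either direction. Intervals with size factors are not given here. FPKM as deposited set the median of all genes at -0.16 between the cultivars at 4 h, and size factors turned the RbohC value at 4 h to 0.038.

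**Figure D5:**
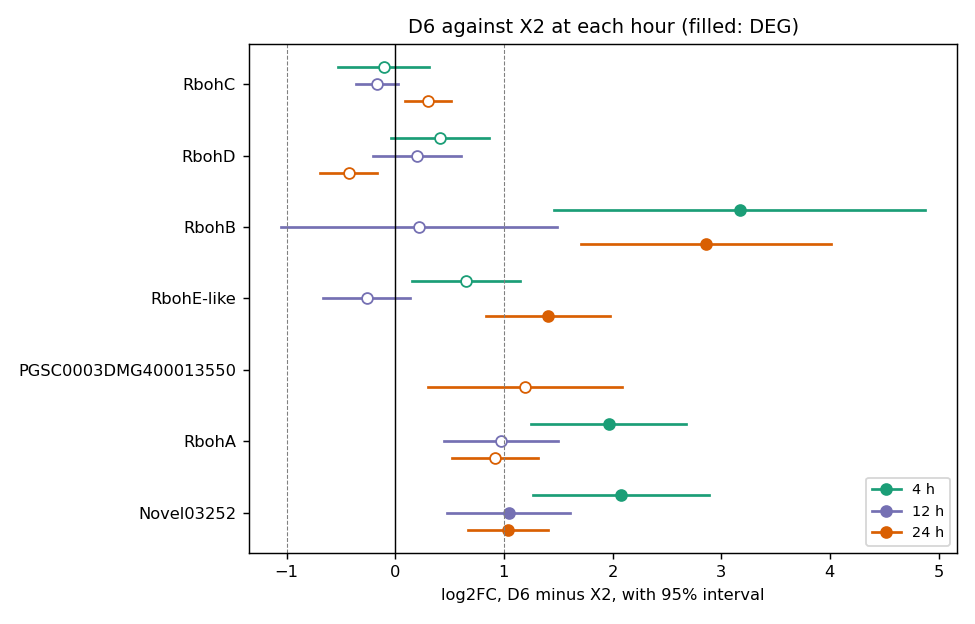
Log2FC of D6 minus X2 at 4, 12 and 24 h for each Rboh gene, with 95% intervals, filled where called a DEG and with dashed lines at a log2FC of 1 and -1. RbohB, RbohA and Novel03252 lie to the right at 4 h, and all RbohC and RbohD intervals lie between the dashed lines.

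The change between later hours was also compared between the cultivars. No member passed the call in the cultivar difference at 12 h against 4 h, where 2.44% of all genes were up and 4.23% down. With limma-voom the RbohE-like gene passed there. At 24 h against 12 h, RbohB and the RbohE-like gene passed, where 1.52% of all genes were up. At 24 h against 4 h, PGSC0003DMG400013550 passed, where 3.03% were up. RbohA, with -1.05 ± 0.40 (SE; unadjusted p of 0.0246), and Novel03252, with -1.04 ± 0.45 (SE; unadjusted p of 0.0413), missed the p threshold in this last comparison, and both passed without X2 4 h replicate 3 or D6 4 h replicate 3.

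Genes listed as superoxide dismutase or catalase moved in both directions. Whether they act on the products of Rboh was not tested. Of the 4 superoxide dismutase genes the study listed, 1 was down at 4 h against 0 h in D6 and 1 in X2, where 17.0% and 15.8% of all genes were down, and none was called up. Of the 4, Novel01435 was under the FPKM filter. PGSC0003DMG400027577 stood at 10.9 ± 0.668 FPKM at 4 h in D6 (SD, n = 3), against 71.6 FPKM in the single 0 h library. In X2 it stood at 20.1 ± 0.458 FPKM at 4 h, against 50.4 ± 5.26 FPKM at 0 h (SD, n = 3 each). PGSC0003DMG400005247 averaged 3.39 FPKM at 0 h in X2 and 5.94, 9.49 and 7.80 FPKM at 4, 12 and 24 h. It was called up there at 12 h (log2FC 1.46) and 24 h (1.18), as were 36.6% and 33.5% of all genes. In D6 it stood at 3.06 FPKM at 0 h and averaged 4.51, 10.3 and 6.76 FPKM later. At 4 h against 0 h, 29.3% of all genes were up in D6 and 35.4% in X2. Of the 4 catalase genes listed, 1 was up and 1 down in D6 and 1 up and 3 down in X2 at 4 h. Catalase isozyme 2 (PGSC0003DMG400001570) was up, at a log2FC of 2.32 in D6 (adjusted p = 9.16e-05) and 2.16 in X2 (adjusted p = 0.000377). PGSC0003DMG400009908, listed with the catalases without a described function, was down in X2 (log2FC -1.98, adjusted p = 0.000228) and under the filter in D6. The most abundant listed catalase, PGSC0003DMG400029408, was chosen for description after its values were seen. It stood at 103 ± 24.9 FPKM at 4 h (SD, n = 3), against 509 FPKM in the single 0 h library, in D6, and at 374 ± 24.7 FPKM at 4 h, against 1083 ± 105 FPKM at 0 h, in X2 (SD, n = 3 each). It was called down at 4 h in both, by a log2FC of -2.33 in D6 (adjusted p = 7.04e-05) and -1.53 in X2 (adjusted p = 4.93e-06). At each later hour it was lower in D6 than in X2. The log2FC of D6 minus X2 was -1.89 for 4 h (adjusted p = 0.000255), -1.61 for 12 h (adjusted p = 0.000418) and -1.40 for 24 h (adjusted p = 0.00101). At 24 h PGSC0003DMG400029408 averaged 596 FPKM in D6 and 1578 FPKM in X2, above 0 h in both but uncalled. Catalase isozyme 2 was higher in D6, by a log2FC of 0.68, 0.96 and 0.90 at 4, 12 and 24 h, under the fold threshold. Catalase isozyme 3 (PGSC0003DMG400009906) was lower in D6, at -1.63, -1.85 and -0.94, and PGSC0003DMG400009908 was under the filter. The study picked both lists from these samples.

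The study's annotation gives 3 more genes the activity of Rboh, the oxidation of NADPH or NADH with oxygen as acceptor, from tables of DEGs. Unlike RbohA and RbohB, PGSC0003DMG400019991 had lower means in D6 than in X2 at the later hours. It stood at 0.0221 FPKM at 0 h and at 0 to 0.525 FPKM in the later D6 libraries, while in X2 it stood at 0.132 to 0.391 FPKM at 0 h, 1.97 to 2.77 FPKM at 4 h, 6.05 to 10.5 FPKM at 12 h and 3.33 to 3.45 FPKM at 24 h. Its D6 minus X2 log2FC was -4.30 at 4 h (adjusted p = 6.04e-05), -5.12 at 12 h (adjusted p = 4.54e-05) and -3.18 at 24 h (adjusted p = 0.00311). The gene passed the FPKM filter there only through X2, and the study's DEGs are of X2. These p-values are therefore no support of their own. PGSC0003DMG401029813 was up-regulated at 4 h in both, by a log2FC of 1.04 in D6 (adjusted p = 0.00113) and 1.68 in X2 (adjusted p = 0.000241). PGSC0003DMG400032563 was under the filter against 0 h and ranged up to 1.28 FPKM.

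The genes with the most similar pattern were sought over the 21 libraries among 20353 genes with a mean of at least 0.5 FPKM, by the Pearson r of log2(FPKM + 0.1), given as a description. For RbohA and Novel03252 the closest gene was the other of the pair, followed for both by PGSC0003DMG400027219 (r = 0.99). For RbohC they were PGSC0003DMG400031465 and PGSC0003DMG400012995 (r = 0.98 each), for RbohD PGSC0003DMG400030000 (r = 0.98) and PGSC0003DMG400004962 (r = 0.96), for RbohB PGSC0003DMG400021838 and Novel02031 (r = 0.94 each), and for the RbohE-like gene PGSC0003DMG400011891 (r = 0.96) and PGSC0003DMG400021563 (r = 0.94). The sources used here pair none of these with a name. The closest other Rboh gene ranked 2350 among these genes for RbohC, 854 for RbohD, 750 for the RbohE-like gene and 411 for RbohB. Among the 6 members with a mean of at least 0.5 FPKM over the libraries, which leaves out PGSC0003DMG400013550, the lowest r was 0.59, between RbohC and Novel03252.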

How the data were processed

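Reads of the potato tuber libraries were filtered by the authors, aligned by HISAT against build SolTub_3.0 and assigned to genes by featureCounts, and FPKM values were deposited. The submitters' processing notes instead name CASAVA 1.8, Bowtie 0.12.2 and the mouse build mm8. The members and gene lists were chosen with earlier results of these data known. Columns were assigned by name. Of 2 columns that bear the name of X2 4 h replicate 2, the first was used by its place among the 4 h columns, and 1 column was not used. No 2 libraries held identical values.

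Whole reads were recovered for 29390 of 29390 genes above 0 in enough libraries, from the FPKM steps and the listed lengths of predicted genes. The step was chosen to give whole reads, so this is no separate check. The recovered length equalled the listed length for 1601 of 3507 predicted genes. For RbohD it was 2552 bases against 3965 listed, for the RbohE-like gene 3134 against 3227, and for Novel03252 2240 in both. The cause of these gaps was not tested. Read totals were 24226307 to 35649617 in D6 and 29746314 to 44921591 in X2.

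Comparisons used limma 3.58.1 (R 4.3.3; lmFit and eBayes with a trend, two-sided) on log2(FPKM + 0.1) for genes with a mean of at least 0.5 FPKM in the libraries fitted, without a replicate block. Only the groups compared were fitted, except that D6 against 0 h used all D6 libraries. Adjusted p-values are Benjamini-Hochberg over all genes tested. The p-values measure the spread between these libraries. The limma step was tested on simulated data. The replicate numbers were taken to pair libraries where 3 pairs all had an r over 0.1 between their deviations from the group means, over all genes with a mean of at least 0.5 FPKM. Of the group pairs with 3 pairs of libraries, D6 12 h and 24 h met this (r = 0.11 to 0.27). The blocked value is given there for RbohB, the only member whose call it changed. The values of the other members in that comparison are unblocked, and no block was run for the cultivar differences. X2 12 h and 24 h had only 2 pairs (r = 0.11 and 0.17). No label states a pairing, and each r was taken from the same values that were tested.

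All 7 members are named. The closest genes by r were the nearest 2 per member, with overlaps checked only for predicted genes. From each related list, the 2 genes with the largest change at X2 4 h among those called without overlap are described. Lists by gene description could not be applied, since the files used hold no descriptions, so the study's superoxide dismutase and catalase lists and the genes its annotation gives the same activity were used, chosen after the files were seen. The tissue markers were replaced in the same way. The alternatives were scaling by median-of-ratios size factors, a mean of at least 1 FPKM or no FPKM filter, pseudocounts of 1 and 0.01, all libraries in 1 model, an adjusted p of at most 0.05, recovered reads in limma-voom, leaving out each library, and the replicate number as a block. Figures and summaries used Python 3.11.15, pandas 2.3.3, numpy 2.4.6, scipy 1.17.1 and matplotlib 3.10.9. The qRT-PCR, hydrogen peroxide and enzyme measurements were not analysed here.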

Additional observations from a re-analysis of the deposited data

Results flagged for a closer look

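In 3 cases the change between later hours differed between D6 and X2 by a test of the difference itself in the fit as reported. For the change at 24 h against 12 h, D6 minus X2 was a log2FC of 2.64 for RbohB (SE 0.83, adjusted p = 0.109) and of 1.67 for the RbohE-like gene (SE 0.30, adjusted p = 0.0171). The RbohB call was lost in 8 of 11 fits that left out a library and in 6 of 8 other alternatives. For 24 h against 4 h it was 2.36 for PGSC0003DMG400013550 (SE 0.49, adjusted p = 0.0123), which has 20 to 238 reads per library and passed the FPKM filter through D6 at 24 h, the group where it is highest. That call was lost with a pseudocount of 1 (0.94), and the gene was not tested with a mean of at least 1 FPKM or with all libraries in 1 model. These differences were computed for 12 h against 4 h, 24 h against 12 h and 24 h against 4 h for each member above the FPKM filter. No replicate block was run for them.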

How the results depend on the processing

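Against 0 h, the number of members called moved by at most 1.5 times under every alternative run in both cultivars. Between later hours the numbers are small and changes sit near the thresholds. A pseudocount of 1 gave 0 members called, against 1, in D6 at 12 h against 4 h, 0 against 1 at 24 h against 12 h and 0 against 3 at 24 h against 4 h. For D6 against X2 it gave 0 against 1 at 12 h and 1 against 3 at 24 h, and for the cultivar difference 1 against 2 at 24 h against 12 h and 0 against 1 at 24 h against 4 h. With all libraries in 1 model the numbers were 2 in D6 at 12 h against 4 h, 0 at 24 h against 12 h and 1 at 24 h against 4 h, 0 for D6 against X2 at 12 h, and 1, 1 and 0 for the cultivar difference at 12 h against 4 h, 24 h against 12 h and 24 h against 4 h. Size factors and limma-voom each gave 0 in D6 at 12 h against 4 h, 2 for D6 against X2 at 12 h and 1 for the cultivar difference at 24 h against 12 h, and limma-voom gave 1 for that at 12 h against 4 h. A mean of at least 1 FPKM gave 0 in D6 at 24 h against 12 h and 0 for the cultivar difference at 24 h against 4 h. No filter gave 1 for the cultivar difference at 24 h against 12 h, and an adjusted p of at most 0.05 gave 1 there and 2 in X2 at 24 h against 12 h. The cause of these differences was not tested.

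Leaving out 1 library gave 0 to 2 members called in D6 at 12 h against 4 h, 0 to 2 at 24 h against 12 h and 1 to 5 at 24 h against 4 h, the 5 without 4 h replicate 2. In X2 it gave 3 to 5 at 12 h against 4 h, the 5 without 4 h replicate 1, and 1 to 2 at 24 h against 12 h. For D6 against X2 at 12 h it gave 0 to 2, and for the cultivar difference 0 to 2 at 12 h against 4 h, 1 to 2 at 24 h against 12 h and 1 to 3 at 24 h against 4 h.

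None of the values that changed sign was called. RbohC in D6 against X2 at 4 h came to a log2FC of 0.038 with size factors and 0.051 with limma-voom, and to -0.31 to 0.071 with 1 library left out. Novel03252 in the cultivar difference at 24 h against 12 h came to 0.022 with a pseudocount of 1 and to -0.25 to 0.24 with 1 library left out, and RbohA there to -0.29 to 0.13. With 1 library left out, RbohC in the cultivar difference at 12 h against 4 h ran from -0.24 to 0.14, RbohB from -1.14 to 0.37 in that at 24 h against 4 h, from -0.47 to 0.61 in D6 against X2 at 12 h and from -1.11 to 0.10 in X2 at 24 h against 4 h, and the RbohE-like gene from -0.12 to 0.22 in D6 at 24 h against 12 h. Of the 955 member values under alternatives that left out no library, 910 kept their direction and their side of the threshold, as did 729 of the 798 with 1 library left out.

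The replicate numbers were used as a block as an alternative in comparisons within a cultivar only. Of the group pairs with 3 pairs of libraries, all 3 had an r over 0.1 for D6 12 h and 24 h. The 2 pairs of X2 12 h and 24 h had 0.11 and 0.17, and those of X2 4 h and 12 h, X2 4 h and 24 h, and D6 4 h and 12 h were above 0 but not all over 0.1. The block gave 2 members called in D6 at 24 h against 12 h and 2 in X2 at 24 h against 12 h, RbohB being the added one in both. Among the other member values it ended the calls of RbohB in D6 at 12 h against 0 h (unadjusted p of 0.0126) and of the RbohE-like gene in X2 at 24 h against 0 h (unadjusted p of 0.0203) and changed no other.

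Of all genes called in X2 at 4 h against 0 h, 69.1% were up with FPKM as deposited and 52.0% with size factors. For D6 at 4 h these shares were 63.3% and 51.9%. Depth limits RbohB at 0 h, with 2 to 6 reads per library, RbohA at 0 h, with 9 to 28, and PGSC0003DMG400013550 throughout.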
